A study of Homo sapiens with 12 samples.

Results

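The nucleoside diphosphate kinases described here are 6 genes of the human NME family, NME1, NME2, NME3, NME4, NME6 and NME7, read from a table of 28278 genes. They were chosen by their family name, and the family was picked after its values in these libraries had been seen, so the calls and levels of its members are a description and carry no p-value. RNA was counted by MARS-seq, a method that tags cDNA with barcodes and sequences the 3′ ends of transcripts, in 4 lines of OCI-Ly7, an established human line of diffuse large B-cell lymphoma. The EZH2 mutant line carried the gain-of-function change Y646N in EZH2, the histone H3 lysine 27 methyltransferase of Polycomb repressive complex 2. The KMT2D mutant line was kmt2d-/-, without the histone H3 lysine 4 methyltransferase KMT2D. The double mutant line was kmt2d-/- and carried EZH2 Y646N as well, and the wild-type line was OCI-Ly7 with neither change. The mutants were made with CRISPR in OCI-Ly7 and none of the lines was treated, and the labels do not say whether a line was 1 clone. The EZH2 mutant had 2 libraries, its replicate 3 was not analysed here, and each other line had 3, which gave 11 libraries.

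Nucleoside diphosphate kinases move the last phosphate of one nucleoside triphosphate, usually ATP, onto another nucleoside diphosphate, and so keep GTP, CTP, UTP and the deoxynucleotides supplied from ATP. NME1 and NME2 make most of this activity in the cytosol and assemble into mixed hexamers, NME4 carries it into mitochondria, where it binds cardiolipin and hands GTP to membrane-remodelling GTPases, and NME3 is found at the mitochondrial surface. NME6 and NME7 belong to a more divergent branch, NME6 in mitochondria and NME7 at centrosomes with the gamma-tubulin ring complex.

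Of the 6 members, 3 had enough counts to be tested with all other genes, NME1, NME3 and NME4. EZH2 and KMT2D both act on chromatin at regulatory regions, so the promoters of these 3 genes are shown, as the 250 bases before the RefSeq transcription start in GRCh38.p14, each written 5′ to 3′ on the strand of its gene. Capitals mark GC boxes, the letters GGGCGG on either strand with overlapping matches counted. The regions are chr16:396949-397198 on the plus strand for NME4, chr17:51153309-51153558 on the plus strand for NME1 and chr16:1771544-1771793 on the minus strand for NME3.
NME4: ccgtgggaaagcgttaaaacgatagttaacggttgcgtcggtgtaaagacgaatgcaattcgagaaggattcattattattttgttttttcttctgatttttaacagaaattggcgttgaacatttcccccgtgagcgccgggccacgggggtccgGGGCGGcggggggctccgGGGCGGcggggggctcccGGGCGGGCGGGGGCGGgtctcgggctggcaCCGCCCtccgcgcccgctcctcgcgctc
NME1: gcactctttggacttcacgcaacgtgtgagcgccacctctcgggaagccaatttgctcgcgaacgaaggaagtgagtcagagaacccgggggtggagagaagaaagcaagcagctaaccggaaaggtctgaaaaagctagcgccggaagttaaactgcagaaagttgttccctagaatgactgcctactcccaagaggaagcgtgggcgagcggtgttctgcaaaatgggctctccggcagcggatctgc
NME3: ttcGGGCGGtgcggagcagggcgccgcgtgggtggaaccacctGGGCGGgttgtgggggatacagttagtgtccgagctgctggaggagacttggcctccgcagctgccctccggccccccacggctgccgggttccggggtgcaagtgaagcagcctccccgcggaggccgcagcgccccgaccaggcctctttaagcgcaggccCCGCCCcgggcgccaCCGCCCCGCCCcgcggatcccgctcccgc
The NME4 window held 6 GC-box matches and 30 CpG dinucleotides, more CpG than 87.8% of the 27305 RefSeq promoters of this length. The NME3 window held 5 matches and 28 CpG dinucleotides, more than 84.5% of promoters. No GC box was found in the NME1 window, which had 16 CpG dinucleotides, more than 59.2% of promoters. Across all promoters 42.3% held a GC box, and the median was 11 CpG dinucleotides. The E-box letters CACGTG, searched on both strands, were in none of the windows of the 6 members and in 6.49% of all promoters. A match to letters is a description of the window and says nothing of a factor bound there.

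Library totals ran from 1118710 to 3107871 counts, and 8813 genes passed the count filter. Levels of single genes with means and SDs are CPM after TMM scaling between libraries (normalised CPM). They are counts as a share of the library's counts in tested genes. Marker sums, the worth of 3 counts and the summed CPM of NME2, NME6 and NME7 are shares of the library totals without TMM scaling. The worth of 3 counts ranged from 0.965 CPM at the greatest depth to 2.68 CPM at the least. Intervals from counts cover counting error only. All 7 B-cell markers were tested and summed to 8322 to 10937 CPM in the EZH2 mutant, 6436 to 7409 CPM in the KMT2D mutant, 7520 to 8128 CPM in the double mutant and 6935 to 9578 CPM in wild type. T-cell markers summed to at most 0.812 CPM in any library and myeloid markers to at most 1.85 CPM, with 3 of 6 genes of each list at 0 throughout, and 4 of 4 erythroid markers were at 0. Stromal markers summed to at most 0.894 CPM in the EZH2 mutant, 5.79 CPM in the KMT2D mutant, 4.23 CPM in the double mutant and 5.69 CPM in wild type, with 2 of 5 genes at 0 throughout and the 1 tested gene, ACTA2, at 0 in both EZH2 mutant libraries. Their part in the results was not tested. EZH2 RNA stood at 64.6 ± 14.6 CPM in the EZH2 mutant, 65.2 ± 0.606 in the KMT2D mutant, 86.9 ± 4.92 in the double mutant and 76.9 ± 7.52 in wild type. KMT2D RNA stood at 30.3 ± 15.4, 38.8 ± 3.795 and 46.2 ± 17.1 CPM in the EZH2, KMT2D and double mutants and at 33.5 ± 9.32 CPM in wild type (SD). These levels, from 3′ ends, do not check the genotypes. In RNA from bulk cultures, a change in the number of cells that express a gene and a change in RNA per cell cannot be told apart.

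NME4, the mitochondrial member, lay below wild type in the EZH2 mutant and above it in the double mutant. In normalised CPM it stood at 17.4 and 11.9 in EZH2 mutant libraries, at 38.7, 49.0 and 36.4 in KMT2D mutant libraries, at 128, 143 and 139 in double mutant libraries, and at 44.1, 30.9 and 37.2 in wild type. The EZH2 mutant libraries were below every other library and the double mutant libraries above every other one, while KMT2D mutant and wild-type libraries overlapped. The share of all tested genes whose lines separate in this way was not counted, so nothing is read from it. The means were 14.7 ± 3.89 CPM in the EZH2 mutant (SD, n = 2), 41.4 ± 6.72 in the KMT2D mutant, 136 ± 7.75 in the double mutant and 37.4 ± 6.60 in wild type (SD, n = 3 each). The counts behind them summed to 41 in the EZH2 mutant, 295 in the KMT2D mutant, 687 in the double mutant and 266 in wild type, so the EZH2 mutant level rests on the fewest reads.

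The log2 fold change of NME4 was -1.40 ± 0.25 in the EZH2 mutant against wild type (SE), a level 2.64-fold lower, and 1.88 ± 0.17 in the double mutant against wild type, 3.68-fold higher. In the KMT2D mutant against wild type it was 0.14 ± 0.18, short of the threshold, which is 0.05 for a p-value adjusted over all tested genes, and the other values of NME4 were past it. Between the lines that share the EZH2 mutation, the double mutant was 9.73-fold above the EZH2 mutant (log2 3.28 ± 0.24). Between the lines that share the loss of KMT2D, the double mutant was 3.34-fold above the KMT2D mutant (log2 1.74 ± 0.17). The interaction, which is the log2 change of the double mutant over the KMT2D mutant minus that of the EZH2 mutant over wild type, was 3.14 ± 0.30. Of the 8813 tested genes, 99.7% had a lower interaction value and 99.8% a lower fold change in the double mutant against wild type. In the EZH2 mutant against wild type, 9.24% of tested genes had a lower value than NME4.

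**Figure D1:**
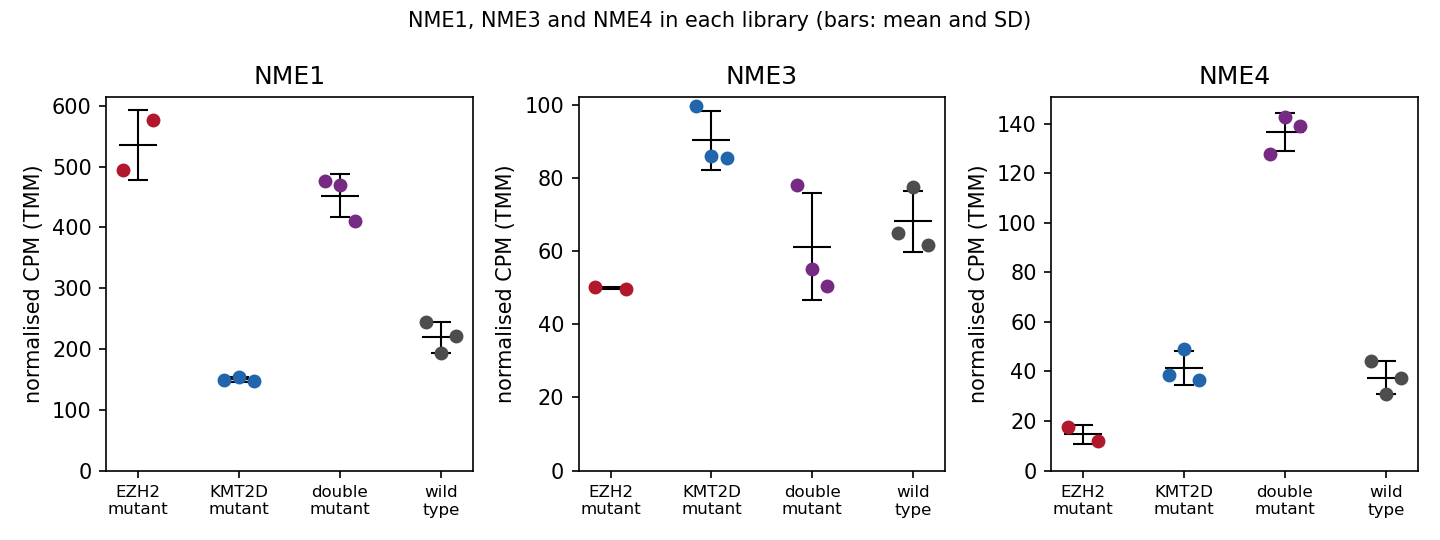
Normalised CPM on a linear axis from 0 for NME1, NME3 and NME4, 1 point per library, by line from the EZH2 mutant at the left to wild type at the right; the horizontal mark is the mean and the bars are SD. NME4 is lowest in the EZH2 mutant (11.9 and 17.4 CPM) and highest in the double mutant (128 to 143 CPM), whereas NME1 is high in both lines with the EZH2 mutation.

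NME1, the main cytosolic enzyme with NME2, was higher in both lines with mutant EZH2 and lower in the KMT2D mutant. It stood at 495 and 576 CPM in EZH2 mutant libraries, at 149, 154 and 147 in KMT2D mutant libraries, at 476, 469.8 and 411 in double mutant libraries, and at 244, 193 and 221 in wild type. No 2 lines overlapped, and the order was EZH2 mutant, double mutant, wild type, KMT2D mutant. How many of all tested genes separate every line in this way was not counted. Its means were 536 ± 57.7 CPM in the EZH2 mutant (SD, n = 2), 150.2 ± 3.72 in the KMT2D mutant, 452 ± 35.7 in the double mutant and 219 ± 25.6 in wild type (SD, n = 3 each).

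The log2 fold change of NME1 was 1.29 ± 0.13 in the EZH2 mutant against wild type (SE), a level 2.45-fold higher, and 1.05 ± 0.12 in the double mutant against wild type, 2.07-fold higher. In the KMT2D mutant against wild type it was -0.54 ± 0.13, 1.46-fold lower, and this call was lost without KMT2D mutant replicate 1 (-0.53) or replicate 3 (-0.51). The double mutant was above the KMT2D mutant by 1.59 ± 0.13. It was not past the threshold against the EZH2 mutant (-0.25 ± 0.14). The interaction was 0.30 ± 0.18, also short of the threshold. NME1 and NME4 were thus both higher in the double mutant, against wild type and against the KMT2D mutant, and lay on opposite sides of wild type in the EZH2 mutant.

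NME3, the member at the mitochondrial surface, had smaller differences, and its order of lines was the reverse of that of NME1. It stood at 50.2 and 49.6 CPM in EZH2 mutant libraries, at 99.6, 85.9 and 85.4 in KMT2D mutant libraries, at 77.97, 55.1 and 50.6 in double mutant libraries, and at 65.1, 77.5 and 61.7 in wild type. The KMT2D mutant libraries were the highest and the EZH2 mutant libraries the lowest, and the double mutant overlapped wild type. The share of all tested genes separated like this was not counted either. The means were 49.9 ± 0.385 CPM in the EZH2 mutant (SD, n = 2), 90.3 ± 8.06 in the KMT2D mutant, 61.2 ± 14.7 in the double mutant and 68.1 ± 8.33 in wild type (SD, n = 3 each).

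Only the double mutant against the KMT2D mutant passed the threshold for NME3, at -0.55 ± 0.17 (log2, SE), 1.47-fold lower, and that call was lost without KMT2D mutant replicate 1 (-0.49), double mutant replicate 2 (-0.49) or double mutant replicate 3 (-0.46). The other values were -0.45 ± 0.20 in the EZH2 mutant, 0.41 ± 0.16 in the KMT2D mutant, and for the double mutant -0.15 ± 0.17, each against wild type. The EZH2 mutant value passed the threshold without double mutant replicate 1 (-0.49), with upper-quartile scaling (-0.62) and with GC and abundance trends removed (-0.79), and the last of these also brought the KMT2D mutant value past it (0.58). The double mutant against the EZH2 mutant gave 0.31 ± 0.21 and the interaction -0.10 ± 0.26, which turned positive without KMT2D mutant replicate 1 or double mutant replicate 3 (highest value 0.03). Across the 11 libraries log2 levels of NME3 and NME1 had a Pearson r of -0.81, against 0.11 for NME4 with NME1 and 0.07 for NME4 with NME3. These r describe libraries that share lines and scaling.

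**Figure D2:**
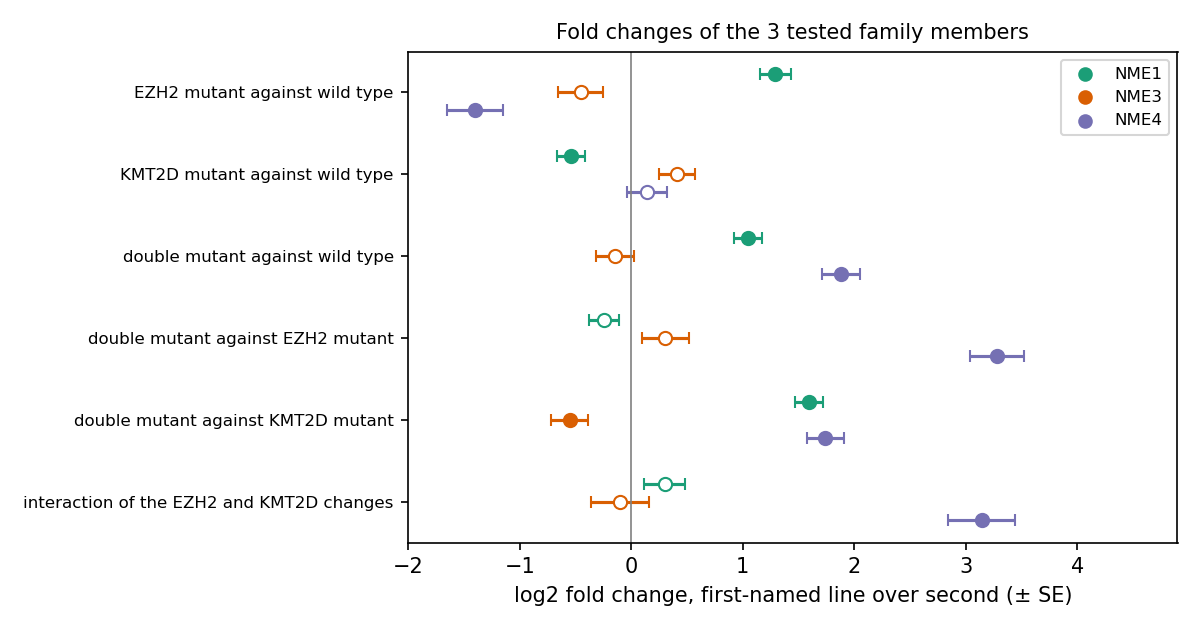
Log2 fold change of NME1, NME3 and NME4 in 5 comparisons of lines and the interaction, with the line named first over the second; bars are SE and filled points are past the adjusted threshold. NME4 lies at -1.40 in the EZH2 mutant and at 1.88 in the double mutant against wild type, and NME3 lies on the other side of 0 from NME1 in the 5 comparisons of lines.

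NME2, the partner of NME1 in the cytosol, was almost uncounted. Its counts were 1 and 3 in EZH2 mutant libraries, 5, 0 and 1 in KMT2D mutant libraries, 3, 0 and 2 in double mutant libraries, and 2, 1 and 0 in wild type. Summed over libraries, this was 1.21 CPM in the EZH2 mutant (exact Poisson 95% interval 0.33 to 3.101), 0.862 CPM in the KMT2D mutant (0.316 to 1.88), 0.945 CPM in the double mutant (0.307 to 2.21) and 0.428 CPM in wild type (0.0883 to 1.25). The intervals overlapped between all lines. Overlap of such intervals is not a test of a difference, and NME2, below the count filter, was not tested. The annotation bears on this level: all of the last 500 bases of the principal NME2 transcript also belong, on the same strand, to the readthrough gene NME1-NME2, which was at 0 in every library. How reads shared by both were counted is not given in the sources used here, so NME2 and NME1-NME2 are uncertain. NME1 shared 32 of its last 500 bases with NME1-NME2, and the last 500 bases of NME2 and NME1 aligned over 145 bases at 80.7% identity. Adding the counts of NME2 to those of NME1 changed no call of NME1. With 18 counts of NME2 in all beside 6617 of NME1, the sum could hardly move NME1. It cannot show how shared reads were counted.

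NME6, the mitochondrial member of the divergent branch, had counts of 2 and 6 in EZH2 mutant libraries, 7, 2 and 11 in KMT2D mutant libraries, 7, 4 and 5 in double mutant libraries, and 2, 8 and 4 in wild type. These summed to 2.42 CPM in the EZH2 mutant (exact Poisson 95% interval 1.05 to 4.77), 2.87 CPM in the KMT2D mutant (1.75 to 4.44), 3.02 CPM in the double mutant (1.73 to 4.91) and 2.00 CPM in wild type (1.09 to 3.35). NME7, the centrosomal member, had 0 and 2 counts in EZH2 mutant libraries, 3, 1 and 2 in KMT2D mutant libraries, 3, 1 and 0 in double mutant libraries, and 1, 2 and 1 in wild type. It summed to 0.606 CPM in the EZH2 mutant (exact Poisson 95% interval 0.0733 to 2.19), 0.862 CPM in the KMT2D mutant (0.316 to 1.88), 0.756 CPM in the double mutant (0.206 to 1.94) and 0.571 CPM in wild type (0.156 to 1.46). Both genes overlapped between all lines, and neither was tested. The last 500 bases of NME7 shared 192 bases with ATP1B1 on the opposite strand. Of the relatives outside the 6, NME5 and NME8 were at 0 in every library and NME9 had 3 counts in all. RP2, a GTPase-activating protein with an NME-like domain, was tested and passed the threshold in none of the 6 comparisons.

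**Figure D3:**
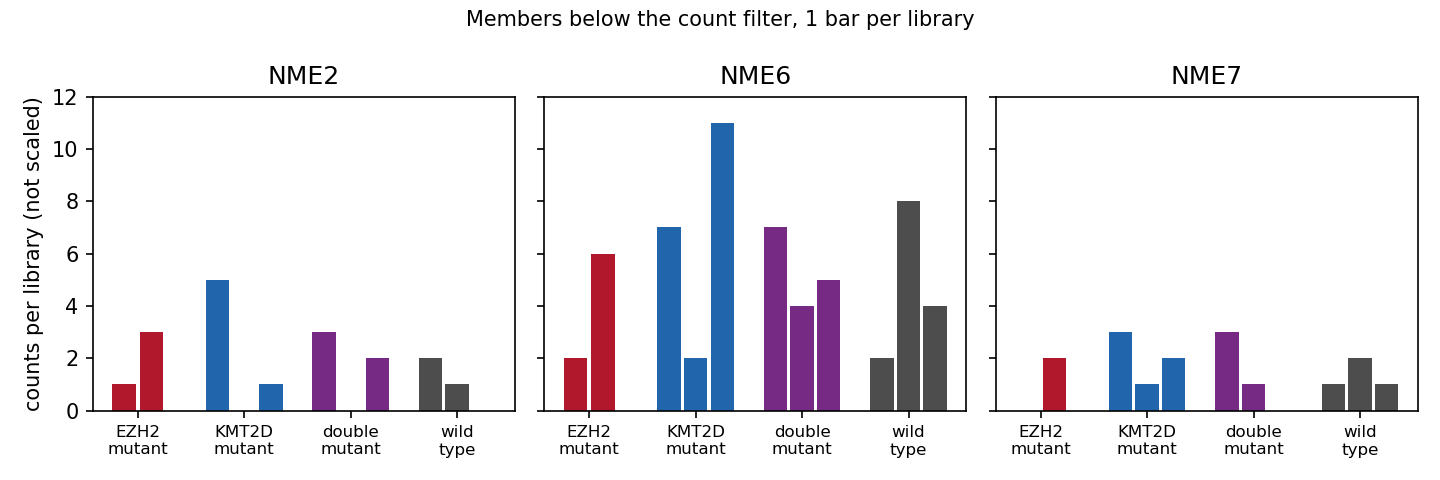
Counts per library, not scaled for depth, of NME2, NME6 and NME7, 1 bar per library, with lines in order from the EZH2 mutant to wild type. No library has more than 5 counts of NME2, 11 of NME6 or 3 of NME7.

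Read against all tested genes, the calls of the family were as follows, and since the family was picked with these contrasts in view nothing is read from them. In the EZH2 mutant against wild type 1 of 3 tested members rose and 1 fell, where 32.3% of all tested genes were called (17.1% higher and 15.1% lower). In the KMT2D mutant 1 fell, where 7.66% of genes were called (3.18% higher and 4.48% lower). In the double mutant against wild type 2 rose, where 23.7% were called (12.1% higher and 11.6% lower). Against the EZH2 mutant, NME4 alone rose in the double mutant, where 2.29% of genes were called (0.715% higher and 1.58% lower). Against the KMT2D mutant, 2 members rose in the double mutant and 1 fell, where 41.9% were called (21.2% higher and 20.8% lower). For the interaction NME4 was called, with 3.02% of all tested genes (1.5% positive and 1.52% negative). The median log2 fold change of the 3 members was -0.45, 0.14 and 1.05 in the EZH2, KMT2D and double mutants against wild type, beside -0.04, 0.00 and -0.01 for all tested genes. Upper-quartile scaling moved the median gene by -0.16 in the EZH2 mutant and by -0.11 in the double mutant, each against wild type, and by -0.15 in the double mutant against the KMT2D mutant. It left 1015 of 2777 called genes higher in the EZH2 mutant, in place of 1511 of 2846, and 728 of 2046 in the double mutant, in place of 1068 of 2087. It also gave 88 of 204 against the EZH2 mutant, in place of 63 of 202, and 1342 of 3642 against the KMT2D mutant, in place of 1864 of 3695. With GC and abundance trends removed, 461 of 872 called genes were higher in the KMT2D mutant, in place of 280 of 675, and 176 of 337 in the double mutant against the EZH2 mutant, in place of 63 of 202. NME1 and NME4 kept their direction under each of these scalings.

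The members lie at 5 places in GRCh38 by the GENCODE 29 annotation. NME4 (ENSG00000103202.12) is on chromosome 16 from 396725 to 410367 on the plus strand, and NME3 (ENSG00000103024.7) on the same chromosome from 1770286 to 1771730 on the minus strand. NME1 (ENSG00000239672.7) and NME2 (ENSG00000243678.11) follow each other on the plus strand of chromosome 17, from 51153536 to 51162428 and from 51165435 to 51171747. NME6 (ENSG00000172113.9) is on chromosome 3 from 48290722 to 48301685, and NME7 (ENSG00000143156.13) on chromosome 1 from 169132531 to 169367967, both on the minus strand.

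Both of the nearest tested genes beside NME4 were higher in the EZH2 mutant than in wild type, where NME4 was lower. PGAP6, an enzyme that acts on GPI-anchored proteins, lies on the side of lower coordinates and stood at 41.8 ± 6.92 CPM in the EZH2 mutant (SD, n = 2), 16.1 ± 3.84 in the KMT2D mutant, 42.7 ± 3.28 in the double mutant and 21.5 ± 2.44 in wild type (SD, n = 3 each). It rose in the EZH2 mutant (log2 0.97 ± 0.23, adjusted p = 0.00319, quasi-likelihood test of edgeR, Benjamini-Hochberg adjusted), a call lost without EZH2 mutant replicate 2, and in the double mutant (0.97 ± 0.20, adjusted p = 0.00168 by the same edgeR test). Its interaction was 0.48 ± 0.31 (adjusted p = 0.502, edgeR). DECR2, a peroxisomal reductase of fatty acid breakdown, starts 5101 bases after NME4 on the same strand, within the annotated span of NME4, whose last 500 bases share none with any other gene. It stood at 29.2 ± 0.783 CPM in the EZH2 mutant (SD, n = 2), 20.8 ± 3.28 in the KMT2D mutant, 24.95 ± 1.77 in the double mutant and 16.4 ± 2.34 in wild type (SD, n = 3 each). It rose in the EZH2 mutant against wild type (0.84 ± 0.24, adjusted p = 0.0119, edgeR), lost without EZH2 mutant replicate 2 or wild-type replicate 3. In the double mutant against wild type its call (0.60 ± 0.21, adjusted p = 0.0475, edgeR) was lost in 16 of 21 alternatives. Its interaction was -0.56 ± 0.32 (adjusted p = 0.423, edgeR).

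Next to NME3 lies MRPS34, a protein of the small mitochondrial ribosomal subunit whose annotated span starts 1604 bases from that of NME3. MRPS34 stood at 657 ± 163 CPM in the EZH2 mutant (SD, n = 2), 418 ± 69.2 in the KMT2D mutant, 618 ± 49.0 in the double mutant and 449 ± 47.4 in wild type (SD, n = 3 each). It rose in the double mutant against the KMT2D mutant (0.57 ± 0.15, adjusted p = 0.00472, edgeR), where NME3 fell, and this call of MRPS34 was lost with GC and abundance trends removed. Its calls against wild type were lost in 4 of 21 alternatives in the EZH2 mutant (0.55 ± 0.16, adjusted p = 0.0156, edgeR) and in 6 of 21 in the double mutant (0.46 ± 0.15, adjusted p = 0.0281, edgeR). MAPK8IP3, a JNK scaffold protein on the other side of NME3, shared 32 of the last 500 bases of NME3 on the opposite strand. Its one call, in the double mutant against the KMT2D mutant (0.44 ± 0.16, adjusted p = 0.0355, edgeR), was lost in 8 of 21 alternatives and turned direction in 1 of those. Beside NME1 and NME2, SPAG9, another JNK scaffold, fell in the EZH2 mutant against wild type (-2.62 ± 0.76, adjusted p = 0.0237, edgeR), lost in 5 of 21 alternatives, among them leaving out either EZH2 mutant library. SPAG9 was low in the EZH2 mutant, at 2.98 and 8.19 CPM, beside 22.1 to 34.9 CPM in wild type. ATP1B1, the sodium pump subunit whose exons overlap the end of NME7, fell in the EZH2 mutant against wild type (-2.17 ± 0.45, adjusted p = 0.00187, edgeR), lost without EZH2 mutant replicate 2. Its interaction (2.42 ± 0.57, adjusted p = 0.0285, edgeR) was lost in 5 of 20 alternatives, each leaving out 1 library. UTP18 beside NME2, ZNF589 beside NME6 and C1orf112 beside NME7 passed the threshold in none of the 6 comparisons. Nor did FCF1P2, which starts within the annotated span of NME6.

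**Figure D4:**
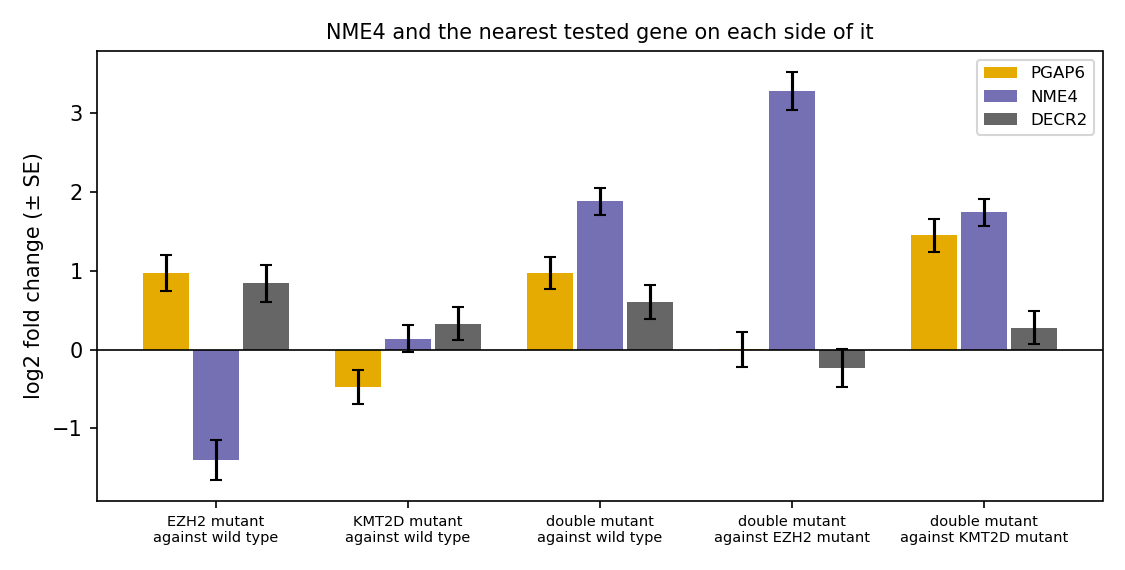
Log2 fold change with SE of NME4 and of the nearest tested gene on each side of it, PGAP6 and DECR2, in 5 comparisons of lines, the line named first over the second. In the EZH2 mutant against wild type NME4 is at -1.40 while PGAP6 is at 0.97 and DECR2 at 0.84.

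Genes whose log2 CPM followed a member most closely over the 11 libraries were taken from 6497 tested genes with a mean of at least 10 CPM. For NME1 they were SRM, the spermidine synthase (Pearson r 0.986), NOC2L, an inhibitor of histone acetyltransferases (0.985), CDKN1A, the cell-cycle inhibitor p21 (0.984), MAST3 (0.984) and TBC1D9B (0.982). SRM stood at 1287 ± 147 CPM in the EZH2 mutant (SD, n = 2), 308 ± 47.5 in the KMT2D mutant, 1090 ± 22.8 in the double mutant and 463 ± 61.0 in wild type (SD, n = 3 each). SRM was picked by its r with NME1, so the order of lines they share is not a separate result. For NME4 they were AP3M2, a subunit of the AP-3 adaptor complex (0.945), EXT2, which builds heparan sulfate (0.939), ACSL5, an acyl-CoA synthetase (0.915), THYN1 (0.909) and FERMT3, the integrin activator kindlin-3 (0.900). AP3M2 stood at 7.31 ± 0.196 CPM in the EZH2 mutant (SD, n = 2), 12.04 ± 0.648 in the KMT2D mutant, 16.5 ± 2.55 in the double mutant and 11.5 ± 1.17 in wild type (SD, n = 3 each). When 1 library was left out, r stayed between 0.983 and 0.990 for SRM and between 0.924 and 0.975 for AP3M2. Membership of these lists rested on single libraries. Of the 5 genes closest to NME1, 1 was again among the closest 5 without EZH2 mutant replicate 1, 2 without EZH2 mutant replicate 2 or wild-type replicate 3, and 3 without KMT2D mutant replicate 1. For NME4, 3 of 5 were again found without EZH2 mutant replicate 1, EZH2 mutant replicate 2 or double mutant replicate 1. The points share library and line, and no p is attached to these r.

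Among enzymes that feed or use the kinases, the monophosphate kinases, which make the diphosphates that the NME enzymes phosphorylate, had 6 of 13 genes tested. In the EZH2 mutant 2 rose and 1 fell, in the double mutant 2 rose and none fell, and none was called in the KMT2D mutant, each against wild type. Of all tested genes, 32.3% were called in the EZH2 mutant, 23.7% in the double mutant and 7.66% in the KMT2D mutant against wild type. The guanylate kinase GUK1 rose to 645 ± 67.6 CPM in the EZH2 mutant (SD, n = 2) and 513 ± 32.02 in the double mutant, against 387 ± 24.4 in wild type (SD, n = 3 each). Its log2 fold changes were 0.73 ± 0.13 (adjusted p = 0.000272, edgeR) and 0.41 ± 0.11 (adjusted p = 0.0142, edgeR), the second lost without double mutant replicate 1, without wild-type replicate 2 and with GC and abundance trends removed. DTYMK, the thymidylate kinase, rose in the EZH2 mutant (0.66 ± 0.14, adjusted p = 0.00121, edgeR), a call lost with GC and abundance trends removed, and its call in the double mutant (0.35 ± 0.12, adjusted p = 0.0434, edgeR) was lost in 14 of 21 alternatives.

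Deoxynucleotide supply, the route through ribonucleotide reductase, had 6 of 8 genes tested, with 2 higher and 1 lower in the EZH2 mutant, 1 higher in the KMT2D mutant and 1 lower in the double mutant, each against wild type (32.3%, 7.66% and 23.7% of all tested genes called). RRM2, the regulated subunit of the reductase, fell to 58.3 ± 4.49 CPM in the EZH2 mutant (SD, n = 2) and 78.5 ± 7.45 in the double mutant, against 122 ± 24.4 in wild type (SD, n = 3 each). Its log2 fold changes were -1.08 ± 0.20 (adjusted p = 0.000581, edgeR) and -0.65 ± 0.17 (adjusted p = 0.00912, edgeR), the second lost without wild-type replicate 2. In the KMT2D mutant RRM2 stood at 88.5 ± 16.6 CPM (SD, n = 3) and was not called against wild type (-0.47 ± 0.165, adjusted p = 0.09, edgeR). Nor was it called in the double mutant against the KMT2D mutant (-0.17 ± 0.17, adjusted p = 0.441, edgeR). CTPS1, the CTP synthase, rose in the EZH2 mutant by 0.54 ± 0.16 (adjusted p = 0.0164, edgeR), lost in 5 of 21 alternatives, among them those without EZH2 mutant replicate 1, without EZH2 mutant replicate 2 and without wild-type replicate 2. DCTD, the deoxycytidylate deaminase, was named after its values were seen. It was the gene of these lists called for the interaction (-1.48 ± 0.24, adjusted p = 0.00115, edgeR), where 3.02% of all tested genes were called. It stood at 102 ± 4.89 CPM in the EZH2 mutant (SD, n = 2), 87.4 ± 9.20 in the KMT2D mutant, 54.6 ± 11.0 in the double mutant and 59.9 ± 6.24 in wild type (SD, n = 3 each). Against wild type it rose in the EZH2 mutant (0.78 ± 0.18, adjusted p = 0.0027, edgeR), a call lost with GC and abundance trends removed. Its call in the KMT2D mutant (0.56 ± 0.16, adjusted p = 0.0308, edgeR) was lost in 5 of 21 alternatives, with DESeq2 and without KMT2D mutant replicate 1 or 3 or wild-type replicate 2 or 3. It was not called in the double mutant against wild type (-0.14 ± 0.17).

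Enzymes that clean the nucleotide pool, by removing damaged or surplus nucleotides, were all tested, 10 of 10, with 5 higher and 2 lower in the EZH2 mutant, none called in the KMT2D mutant and 4 higher and 2 lower in the double mutant (32.3%, 7.66% and 23.7% of all tested genes called). DCTPP1, a dCTP pyrophosphatase, rose to 410.3 ± 29.8 CPM in the EZH2 mutant (SD, n = 2) and 314 ± 25.3 in the double mutant, against 207 ± 8.20 in wild type (SD, n = 3 each). Its log2 fold changes were 0.99 ± 0.13 (adjusted p = 2.43e-05, edgeR) and 0.60 ± 0.12 (adjusted p = 0.00131, edgeR). ITPA, which destroys inosine triphosphate, rose by 1.01 ± 0.17 in the EZH2 mutant (adjusted p = 0.000183, edgeR) and by 0.52 ± 0.15 in the double mutant (adjusted p = 0.0176, edgeR), the call in the double mutant lost in 5 of 21 alternatives, among them leaving out double mutant replicate 1, wild-type replicate 2 or wild-type replicate 3. NT5C3A, a pyrimidine 5′-nucleotidase, fell in the EZH2 mutant (-1.25 ± 0.37, adjusted p = 0.0148, edgeR) and in the double mutant (-1.17 ± 0.31, adjusted p = 0.00987, edgeR). The first call was lost without EZH2 mutant replicate 1, without wild-type replicate 3 and with GC and abundance trends removed, the second without double mutant replicate 2 or wild-type replicate 3.

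Nucleoside salvage, which returns bases and nucleosides to the pool, had 10 of 12 genes tested, with 4 higher and 1 lower in the EZH2 mutant, none called in the KMT2D mutant and 3 higher in the double mutant (32.3%, 7.66% and 23.7% of all tested genes called). APRT, the adenine phosphoribosyltransferase, rose to 729 ± 115 CPM in the EZH2 mutant (SD, n = 2) and 576 ± 72.9 in the double mutant, against 390 ± 54.4 in wild type (SD, n = 3 each). Its log2 fold changes were 0.90 ± 0.15 (adjusted p = 0.000176, edgeR) and 0.56 ± 0.13 (adjusted p = 0.00502, edgeR). The uridine-cytidine kinase UCK1 rose in the double mutant (0.60 ± 0.15, adjusted p = 0.00801, edgeR), a call lost without wild-type replicate 3 and with GC and abundance trends removed, and its call in the EZH2 mutant (0.53 ± 0.17, adjusted p = 0.0257, edgeR) was lost in 10 of 21 alternatives. The related UCKL1 rose in the EZH2 mutant (0.55 ± 0.16, adjusted p = 0.0147, edgeR), lost in 5 of 21 alternatives, and in the double mutant (0.43 ± 0.15, adjusted p = 0.038, edgeR), lost in 13.

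NME4 works beside mitochondrial GTPases, cardiolipin enzymes and carriers. Of GTP-using and cardiolipin genes of mitochondria, 8 of 12 were tested, with 1 lower in the EZH2 mutant and none called in the KMT2D mutant or the double mutant against wild type (32.3%, 7.66% and 23.7% of all tested genes called). MFN2, a GTPase that fuses outer membranes, stood at 62.8 ± 1.02 CPM in the EZH2 mutant (SD, n = 2) and 60.9 ± 14.9 in the double mutant, against 46.0 ± 8.87 in wild type (SD, n = 3 each). DNM1L, the fission GTPase, gave -0.13 ± 0.23 and -0.48 ± 0.21 in the EZH2 and double mutants and was not called. SUCLG2, the subunit of the GTP-forming succinyl-CoA ligase, was the gene that fell in the EZH2 mutant (-0.65 ± 0.25, adjusted p = 0.0476, edgeR), a call lost in 10 of 21 alternatives. OPA1, the inner-membrane fusion GTPase, had 34 counts in all and was not tested. Of the mitochondrial nucleotide carriers 3 of 6 were tested, SLC25A5, SLC25A6 and SLC25A33, and none passed the threshold in any of the 6 comparisons.

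In the double mutant against the KMT2D mutant, 2 monophosphate kinases rose and 2 fell, 1 deoxynucleotide supply gene rose and 1 fell, 5 pool-cleaning genes rose and 3 fell, 6 salvage genes rose and 1 fell, and 1 mitochondrial GTP or cardiolipin gene rose and 2 fell, where 41.9% of all tested genes were called. In the double mutant against the EZH2 mutant and for the interaction, DCTD was the gene of these lists that was called. Of all tested genes, 2.29% were called in the first and 3.02% for the interaction, so nothing is read from this. The log2 fold change of DCTD was -0.92 in the double mutant against the EZH2 mutant. That call was lost without EZH2 mutant replicate 2 or double mutant replicate 3. The median log2 fold changes in the EZH2 mutant against wild type were 0.10 for monophosphate kinases, -0.07 for deoxynucleotide supply, 0.16 for pool cleaning, 0.27 for salvage, -0.18 for mitochondrial GTP and cardiolipin genes and -0.01 for the carriers, beside -0.04 for all tested genes. In the double mutant against wild type they were 0.00, -0.02, 0.13, 0.21, 0.04 and -0.05 in the same order, beside -0.01 for all tested genes. Single genes of the lists lay below NME4 in the EZH2 mutant against wild type, DCK, the deoxycytidine kinase, and CMPK1, the UMP/CMP kinase, both named after their values were seen. DCK gave -1.92 ± 0.59 (adjusted p = 0.0344, edgeR), lost in 4 of 21 alternatives, among them leaving out either EZH2 mutant library or wild-type replicate 2. CMPK1 gave -1.71 ± 0.62 (adjusted p = 0.0468, edgeR), lost in 11 of 21. Its levels were low, 1.02 and 6.45 CPM in EZH2 mutant libraries, and overlapped those in wild type (6.22 to 26.8 CPM).

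**Figure D5:**
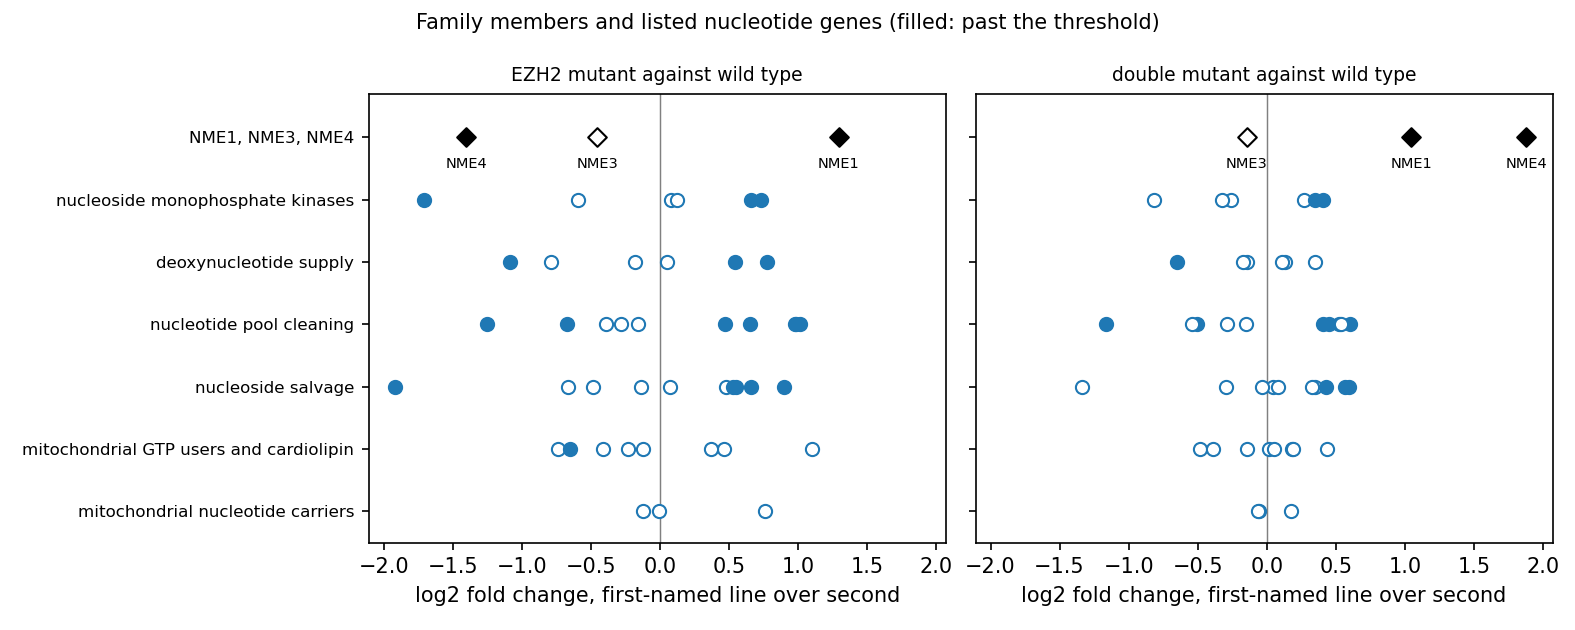
Log2 fold change of NME1, NME3 and NME4 (diamonds) and of every tested gene in 6 lists of nucleotide metabolism and mitochondrial GTP use (circles), in the EZH2 mutant against wild type at the left and the double mutant against wild type at the right; filled symbols are past the adjusted threshold. NME4 lies at -1.40 in the left panel and at 1.88 in the right one.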

How the data were processed

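Total RNA was turned into barcoded cDNA, per the labels' protocols, and sequenced on a NextSeq500. The deposited table holds counts per gene, called corrected without saying for what. Per the submitters' processing notes, Trim Galore 0.6.0, cutadapt 1.15, FastQC, STAR 2.7.0f and DESeq2 were used. What DESeq2 was used for, and the counter, build, annotation and strand setting, are not given in the sources used here. The DM columns were read as double mutant. Of 12 samples, 1 was not analysed here.

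The tests used edgeR 4.0.16 under R 4.3.3, on genes kept by filterByExpr by group with a minimum count of 10, with TMM factors and a robust quasi-likelihood fit over all 11 libraries with 1 term per line. Benjamini-Hochberg adjustment ran over the 8813 genes of each comparison, with 0.05 as the threshold. Because the labels name no separate cultures for replicates, p-values cover only the spread among these libraries. The fit was also run on counts simulated from the spread it estimated itself, with few genes changed in a single line. Its outcome is not reported here. Such a run cannot probe the correction of the counts, replicates that are not independent or scaling where many genes change. The SE printed with a log2 fold change is its absolute value divided by the square root of the edgeR F statistic. It is not a standard error estimated by the fit. Log2 CPM used a prior count of 2.

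The members, the gene lists and the tests were chosen with earlier results of these data known. The rule for names took the 6 members, up to 3 genes of each list with the smallest adjusted p in the double mutant against wild type, the 5 genes closest by Pearson r to NME1, NME2 and NME4, and the nearest tested gene on each side of a member. NME2 was below the filter, so no list was made for it. Some genes that the rule names are not reported here. Places came from GENCODE 29 and promoters from RefSeq.

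Alternatives were upper-quartile and RLE factors, testing with no filter, a filter of 5 CPM in 3 libraries, limma-voom (limma 3.58.1), DESeq2 1.42.0, only the groups compared, NME1 and NME2 counts summed, a replicate block, and each library left out in turn. A fit with trends in GC content and abundance taken out by splines (5 degrees of freedom) was added after seeing the data. Python 3.11.15, pandas 2.3.3, numpy 2.4.6, Biopython 1.88 and matplotlib 3.10.9 served for tables, alignments and figures.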

Additional observations from a re-analysis of the deposited data

Results flagged for a closer look

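The NME4 interaction was 3.14 on the log2 scale with an SE of 0.30. It was flagged because the change between lines with and without the EZH2 mutation differed by the interaction term of the fit: it was 1.74 in the lines without KMT2D (double mutant over KMT2D mutant) and -1.40 in the lines with it (EZH2 mutant over wild type). All 3 double mutant libraries were above all 3 KMT2D mutant libraries, and both EZH2 mutant libraries were below all 3 wild-type libraries. The share of all tested genes that separate in this way was not counted. The family was picked with this value in view. Over 20 alternatives its lowest value was 2.83, without EZH2 mutant replicate 2, and its highest 3.37, with the other library of that line left out.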

How the results depend on the processing

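Of 375 member fold changes recomputed under the alternatives, 364 kept their direction and their side of the threshold, 5 fell short of it, 4 came past it and 2 turned sign. The NME4 value in the EZH2 mutant against wild type lay between -1.70, with GC and abundance trends removed, and -1.09, without EZH2 mutant replicate 2. In the double mutant against wild type it lay between 1.73 and 2.00. Both turns of sign were of the NME3 interaction, which ran from -0.30 to 0.0325 when 1 library was left out. Members called in the KMT2D mutant against wild type numbered 0 to 1 when 1 library was left out, 0 without KMT2D mutant replicate 1 or replicate 3, and 2 with GC and abundance trends removed, where NME3 was added. Leaving out 1 library gave 1779 to 2874 genes called in the EZH2 mutant, 339 to 802 in the KMT2D mutant and 1381 to 2286 in the double mutant against wild type, 99 to 242 in the double mutant against the EZH2 mutant and 147 to 309 for the interaction. The double mutant against the EZH2 mutant had 381 calls with no filter, 92 from only the groups compared and 337 with GC and abundance trends removed. The interaction had 482 with no filter and 491 with those trends removed. The causes were not tested. A fit of the compared groups alone was not run for the interaction, which needs all 4 lines. With 2 libraries and 41 counts, NME4 in the EZH2 mutant is limited by depth, and NME2, NME6 and NME7 are too few to compare.

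Whether same-numbered libraries shared a culture or batch is not given in the sources used here. Over 15 pairs of them, r of deviations from the line mean ran from -0.29 to 0.38, with 5 over 0.1. Deviations of the 2 EZH2 mutant libraries mirror each other by construction, so these r cannot settle whether libraries were paired. With a replicate block the NME4 interaction was 3.16, and 2445, 629 and 2002 genes were called in the EZH2, KMT2D and double mutants against wild type. No member call changed.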
